A study of Arabidopsis thaliana with 24 samples.

Results

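The change of the polysomal to total RNA ratio between 15 and 12 days after pollination (DAP) was measured in developing seeds of Arabidopsis thaliana, ecotype Col-0. It is the polysomal minus total level at 15 DAP, less the polysomal minus total level at 12 DAP, on the log2 scale, so a positive value is a ratio that was higher at 15 DAP. The members were 12 of the 24 arrays of the series, chosen by RNA fraction and stage, and 27827 of 27827 loci were tested. They formed 4 groups of 3 arrays: polysomal RNA at 15 DAP, total RNA at 15 DAP, polysomal RNA at 12 DAP and total RNA at 12 DAP. All 4 groups share the ecotype, with no mutant allele and no treatment named in the labels. Each replicate was pooled from a bulk of plants of a randomized block planting. The labels do not say whether a polysomal and a total sample came from the same bulk. The other arrays held the same fractions at 18 and 20 DAP.

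Polysomes are messenger RNAs that carry several ribosomes at once, so the polysomal fraction is enriched for transcripts under translation in the cytosol. Between these stages an Arabidopsis embryo fills with storage protein and oil, loses its photosynthetic character and starts to prepare for drying. Transcripts made inside mitochondria and plastids are translated by the ribosomes of those organelles. On arrays normalized to one another, the ratio is relative to the other transcripts of the same arrays and does not measure the share of a transcript's molecules that sat on ribosomes. In RNA from whole seeds, fewer cells of a type and less RNA per cell cannot be told apart.

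The 4 groups differed in how widely the levels spread and in how closely replicates matched. The SD of the levels over all loci was 2.32 to 2.38 on the polysomal and 2.13 to 2.19 on the total arrays of 15 DAP, against 1.39 to 1.49 on the polysomal and 1.64 to 1.71 on the total arrays of 12 DAP. Replicates correlated across loci, which are not independent, at 0.984 to 0.987 and 0.963 to 0.966 in polysomal and total RNA at 15 DAP, and at 0.739 to 0.769 and 0.819 to 0.851 at 12 DAP. The median SD between replicates was 0.207 and 0.290 at 15 DAP, against 0.567 and 0.532 at 12 DAP. Their part in the results was not tested. Results are therefore given on the deposited values. For many whose call or sign changed, the value after a further quantile normalization, which gives all 12 arrays the same distribution, is given too.

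The ratio changed at 806 loci (2.90% of 27827, limma adjusted p under 0.05), and more of them rose than fell. It was higher at 15 DAP at 557 loci (2.0%) and lower at 249 (0.895%). On quantile normalized values 436 loci were called (1.57%), of which 315 were higher (1.13%) and 121 lower (0.435%). Called the same way on both scales were 293 loci (1.05%), 231 of them higher (0.830%) and 62 lower (0.223%). At an unadjusted p under 0.05 there were 5399 (19.4%). Leaving out polysomal replicate 2 of 15 DAP gave the lowest count, 241, and the count was also over 1.5 times lower without any other single array of 15 DAP (265 to 394). Without polysomal replicate 2 of 12 DAP it was 1209. The median change over all loci was -0.06 on both scales. The share of calls that were higher was 69.1% as deposited, 86.9% after centring each array on its median and 84.8% after scaling the arrays to one median absolute deviation, which moved the median of all loci to 0.19 and 0.25. Changes below carry the SE of the fit, with 3 arrays in each group.

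Most called rises had a polysomal level below the total level at 12 DAP, and as a set they had a median close to parity at 15 DAP. Among the 557 loci called higher, the median polysomal minus total level was 0.09 at 15 DAP and -2.43 at 12 DAP, and 556 of them lay below 0 at 12 DAP. Tested within a stage, 122 of them were lower in polysomal than in total RNA at 15 DAP and 434 at 12 DAP, while 86 and 0 of them were higher. Their level in polysomal RNA was 2.199 higher at 15 than at 12 DAP (median of the differences), and in total RNA it changed by -0.51. The 249 loci called lower had medians of -0.96 at 15 DAP and 1.44 at 12 DAP, with changes of -2.198 in polysomal and 0.13 in total RNA. Both stages make up the ratio change that selected the loci, so these values describe it and give it no further support. The later stages were not used for the selection. There the loci called higher had medians of 0.01 at 18 DAP and 0.04 at 20 DAP, and those called lower had -0.67 and -0.56, against 0.04 and 0.03 over all loci.

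Tested by stage on its own 6 arrays, polysomal and total RNA differed at 6196 loci at 15 DAP (22.3%) and at 1573 loci at 12 DAP (5.65%). At 15 DAP 3014 were higher in polysomal RNA (10.8%) and 3182 lower (11.4%), and at 12 DAP 252 were higher (0.906%) and 1321 lower (4.75%). Without a single polysomal array the 15 DAP count was 2432 to 2926, and without polysomal replicate 1 or total replicate 2 or 3 the 12 DAP count was 982, 907 or 947. On quantile values these counts were 3152 and 922. Taken from the fit to all 12 arrays, which shares 1 spread over the stages, they were 1255 at 15 DAP (150 higher and 1105 lower) and 4892 at 12 DAP (2083 higher and 2809 lower), so which stage had more calls, and the balance of directions at 15 DAP, depended on the fit. The 2 counts rest on unequal spreads and cannot be set against each other as a measure of how different the fractions were. Of the loci that changed in ratio, 16 were called in opposite directions at the 2 stages, 11 of them with the polysomal level above the total level at 15 DAP and below it at 12 DAP.

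**Figure D1:**
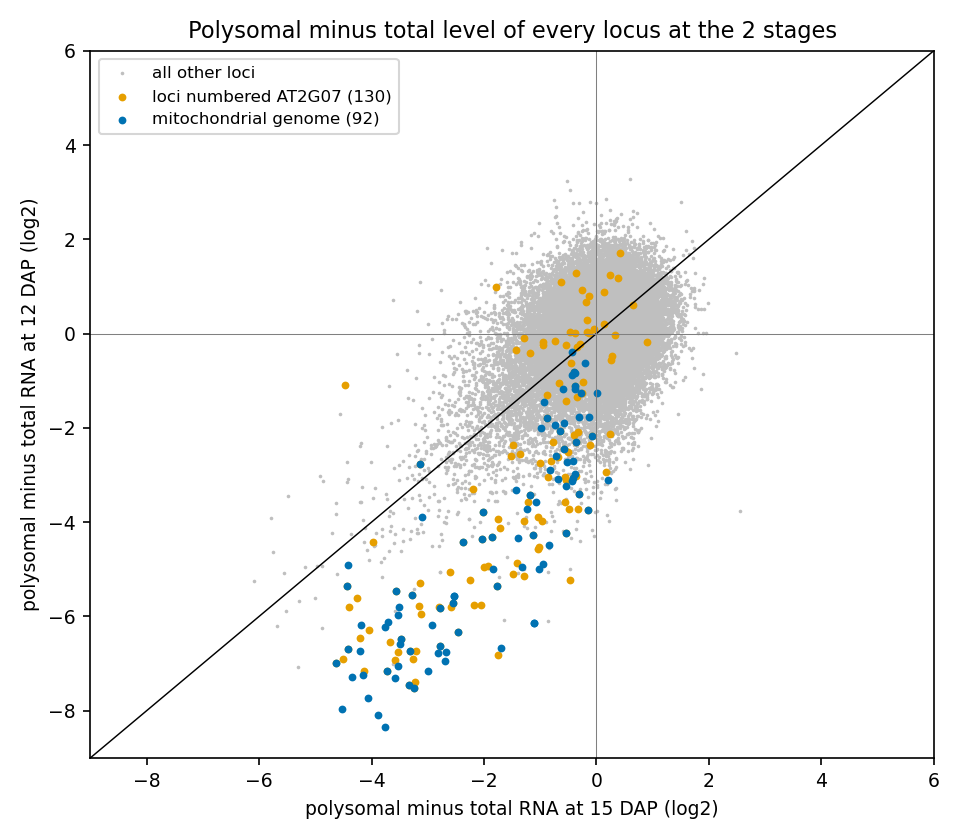
Polysomal minus total level (log2, means of 3 arrays per group) of each locus, with 15 DAP on the horizontal and 12 DAP on the vertical axis. Points below the diagonal line had a higher ratio at 15 DAP. Of the 92 mitochondrial loci (blue) 90 lie below it, and most loci numbered AT2G07 (orange, 102 of 130) do too.

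The ratio rose for most transcripts of the mitochondrial genome. The ratio was higher at 15 DAP at 63 of its 92 loci and lower at 0, against 2.0% of all loci called higher, and the median change was 2.49. On quantile values 24 rose and 0 fell, against 1.13% and 0.435% of all loci, with a median of 1.73. The medians after the 3 other ways of scaling were 2.41 to 2.85. Without polysomal replicate 2 of 15 DAP 37 were called higher, with a median of 2.50. The 2 loci with a negative change were ATMG01000 (-0.04) and ATMG01070 (-0.37), neither called. A total of 37 mitochondrial loci have exactly the values of another locus, and of the other 55 loci 36 were called higher.

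The median level of the 92 mitochondrial loci on the polysomal arrays was 7.59, 7.72 and 7.84 at 15 DAP, against 6.13, 6.10 and 6.10 at 12 DAP. On the total arrays it was 9.37, 9.54 and 9.51 at 15 DAP, against 10.864, 10.923 and 11.001 at 12 DAP. Neither fraction's arrays overlapped between the stages, and the fractions moved in opposite directions: polysomal levels were higher and total levels lower at 15 DAP. Over the 92 loci, polysomal minus total had a median of -1.57 at 15 DAP and -4.45 at 12 DAP. Tested within a stage, 68 of the 92 were lower in polysomal RNA at 15 DAP and 80 at 12 DAP, against 11.4% and 4.75% of all loci. At either stage 0 were higher, against 10.8% and 0.906% of all loci. The gap was smaller still at the later stages, with medians of -0.92 at 18 DAP and -0.72 at 20 DAP.

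**Figure D2:**
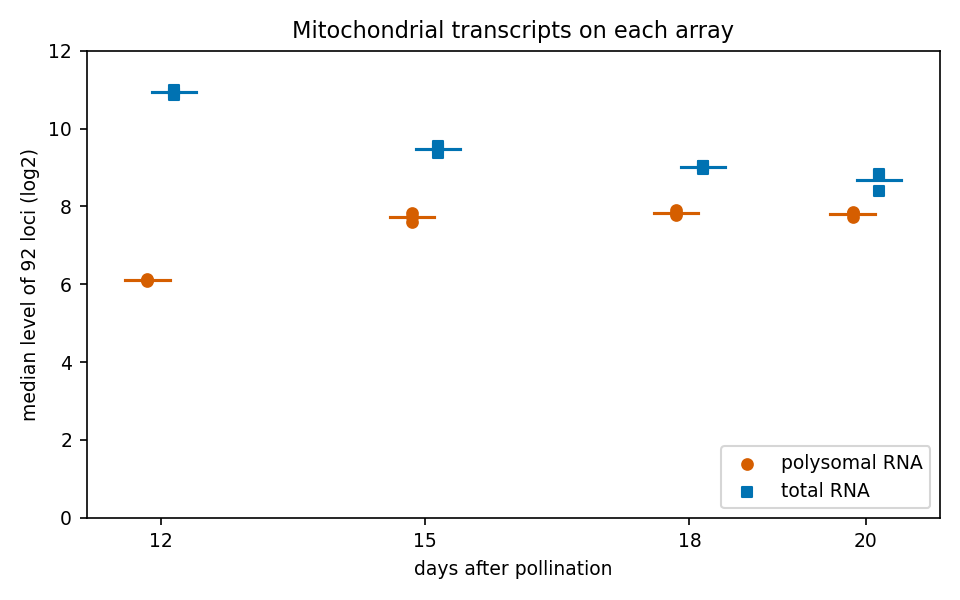
Median log2 level of the 92 mitochondrial loci on each array of the series (points; bars are means of 3 arrays), by days after pollination, with polysomal RNA left of total RNA. The polysomal arrays stand at 7.59 to 7.84 and the total arrays at 9.37 to 9.54 at 15 DAP, against 6.10 to 6.13 and 10.864 to 11.001 at 12 DAP.

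The 4 named mitochondrial loci also rose in ratio. ATMG00450 had 5.08, 5.45 and 5.82 in polysomal and 9.23, 9.12 and 9.26 in total RNA at 15 DAP, against 2.84, 2.04 and 3.60 in polysomal and 11.06, 11.09 and 11.33 in total RNA at 12 DAP. All 3 polysomal values were higher, and all 3 total values lower, at 15 DAP. Its ratio rose by 4.58 ± 0.54 (SE, adjusted p = 0.00054). ATMG00880 rose by 4.21 ± 0.46, ATMG00810 by 4.25 ± 0.43 and ATMG01240 by 4.97 ± 0.72, and these 4 were called under every setting tried. The gene table used for names lists no symbol for these loci, so no product is given for them.

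Chromosome 2 of Col-0 carries a nuclear copy of much of the mitochondrial genome, and loci numbered AT2G07, singled out after their values were seen, are given beside the organelle's. The number range was not matched to the bounds of that copy, and it takes in other genes, such as MCM5 (AT2G07690) of the cell cycle list. Of these 130 loci 67 were called higher and 2 lower (AT2G07110 and AT2G07505), against 2.0% and 0.895% of all loci. Their median change was 2.12, and on quantile values 22 were called higher and 1 lower, against 1.13% and 0.435% of all loci. For 33 of the 130 the deposited values are identical to those of a mitochondrial locus, so the arrays do not separate the 2 genomes there. Of the other 97 loci 44 were called higher, with a median of 1.76. AT2G07798 had 6.88, 6.90 and 7.01 in polysomal and 8.54, 8.74 and 8.73 in total RNA at 15 DAP, against 3.89, 3.94 and 3.50 in polysomal and 10.18, 10.80 and 10.81 in total RNA at 12 DAP. Its change of 5.08 ± 0.44 (adjusted p = 5.5e-05) ran through both fractions without overlap. AT2G07726 rose by 4.75 ± 0.63. Whether near-identical mitochondrial transcripts were read by the probes of these loci was not tested.

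Of 15 plastid loci 1 was called higher (ATCG00610, 2.09 ± 0.49, adjusted p = 0.030, and 0.18 on quantile values) and 0 lower. The deposited values of ATCG00610 are identical to those of the mitochondrial locus ATMG00930, which is counted among the mitochondrial rises, so this call cannot be assigned to the plastid genome. Of the plastid loci only ATCG00230, ATCG00250 and ATCG00580 had values shared with no other locus. Their changes were -0.39, 0.55 and -0.30, and none was called. The median change of all 15 was 0.16, or -0.23 on quantile values, so its sign depended on the scaling. Taken locus by locus, polysomal minus total had a median of -0.86 at 15 DAP and -0.84 at 12 DAP. The median level of the 15 loci on the polysomal arrays was 9.04, 9.36 and 9.13 at 15 DAP, against 8.81, 8.63 and 8.17 at 12 DAP. On the total arrays it was 10.55, 10.59 and 10.395, against 11.70, 11.95 and 11.73. Between the stages 3 loci were called higher and 8 lower in polysomal RNA, and 0 and 11 in total RNA. Whether the gap between the fractions narrowed thus depended on the measure. The difference between the 2 organelles was not tested. Among 706 non-coding RNA genes, which like organelle transcripts are not carried by cytosolic polysomes as messengers, 21 were called higher and 10 lower, against 2.0% and 0.895% of all loci. On quantile values 6 were called higher and 6 lower, against 1.13% and 0.435% of all loci. After median centring it was 34 and 5, so the balance of directions depended on the scaling. Of the 21 rises as deposited, 10 were numbered AT2G07, including AT2G07746 (3.34 ± 0.55, not called on quantile values at adjusted p = 0.17) and AT2G07756 (3.12 ± 0.48). The remaining 691 had 11 higher and 10 lower.

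AT4G18690, a nuclear locus without a symbol in the gene table, had the largest rise among the loci that the naming rule covers. Its polysomal levels were 8.16, 8.66 and 8.45 at 15 DAP, against 4.50, 3.77 and 3.86 at 12 DAP. Its total levels were 9.10, 9.66 and 9.11 at 15 DAP, against 10.12, 10.20 and 10.12 at 12 DAP. The transcript was thus higher on polysomes and lower in total RNA at 15 DAP, with no overlap in either fraction, and the ratio rose by 5.23 ± 0.46 (adjusted p = 5.5e-05). AT2G18940 (4.52 ± 0.71), AT5G27889 (4.44 ± 0.57) and AT4G07408 (4.24 ± 0.85) also rose, and these 4 loci were called under every setting tried. For AT4G07408 the total values at 12 DAP were 5.05, 7.75 and 8.39, the widest apart of the named rises. VFB3, an F-box gene that is its neighbour in the gene table, rose by 3.49 ± 0.54.

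Small heat shock proteins, chaperones that accumulate in maturing seeds, supplied 3 of the called rises. HSP23.6-MITO, a chaperone of the mitochondrion encoded in the nucleus, had 9.53, 9.54 and 9.27 in polysomal and 9.23, 9.17 and 9.28 in total RNA at 15 DAP, against 3.37, 4.66 and 4.23 in polysomal and 7.87, 7.63 and 8.72 in total RNA at 12 DAP. Both fractions were higher at 15 DAP without overlap, the polysomal one by 5.36 and the total one by 1.16. The ratio rose by 4.204 ± 0.54 (adjusted p = 0.0010). HSP17.6II and HSP17.6A, neighbouring genes for cytosolic small heat shock proteins of similar sequence, rose by 3.45 ± 0.70 (adjusted p = 0.015) and 3.89 ± 0.87 (adjusted p = 0.024). HSP17.6A was not called on quantile values (3.88, adjusted p = 0.14), nor HSP17.6II after cyclic loess (2.85, adjusted p = 0.068). In the 12 fits that each left out 1 array, the call was lost in 7 for HSP17.6A and in 2 for HSP17.6II. One polysomal value of HSP17.6A at 12 DAP, 2.94, lay far below the other 2, at 6.09 and 6.18. Of 20 heat shock proteins and factors 3 rose and 0 fell, against 2.0% and 0.895% of all loci. On quantile values 2 rose, against 1.13% of all loci. The list's median was 0.51, and HSFA9, the seed-specific factor that activates small heat shock genes, had 1.19 ± 0.59 (adjusted p = 0.28).

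Of 38 genes listed for abscisic acid (ABA), the hormone of seed maturation and dormancy, with gibberellin and dormancy, 1 was called higher and 0 lower, against 2.0% of all loci called higher. The list's median was 0.53. The called gene, NCED5, encodes an enzyme of the step that commits carotenoids to ABA synthesis. It had 5.34, 5.10 and 5.06 in polysomal and 4.39, 4.18 and 4.26 in total RNA at 15 DAP, against 2.95, 3.17 and 3.08 in polysomal and 5.12, 4.38 and 4.86 in total RNA at 12 DAP. Polysomal values lay above all total values at 15 DAP and below all of them at 12 DAP, and the ratio rose by 2.61 ± 0.44 (adjusted p = 0.0050). TMAC2, a repressor of ABA responses chosen after its values were seen, rose by 3.31 ± 0.48. ABI5, a transcription factor of late maturation that acts in ABA signalling and stands in the list of maturation factors, was at the edge of the threshold (1.75 ± 0.46, adjusted p = 0.0495, and 0.088 on quantile values), and its call was lost in 10 of the 12 fits without a single array (adjusted p up to 0.15). Its polysomal values of 10.80 to 11.12 at 15 DAP stood against 5.77 to 6.59 at 12 DAP.

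Among other genes with a symbol, again chosen after their values were seen, SK4, an SKP1-like part of ubiquitin ligases, rose by 3.71 ± 0.50 (adjusted p = 0.0012). It had 6.78, 7.07 and 6.79 in polysomal and 6.43, 5.43 and 6.01 in total RNA at 15 DAP, against 2.79, 2.86 and 2.58 in polysomal and 5.95, 5.62 and 5.03 in total RNA at 12 DAP. Total RNA overlapped between the stages and polysomal RNA did not. SLK1, a transcriptional co-regulator of embryo development, rose by 3.47 ± 0.47. MYB70, a transcription factor, rose by 3.35 ± 0.52, and NIP1;2, a channel protein of the aquaporin family, by 3.31 ± 0.46. All 4 were called under every setting tried.

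**Figure D3:**
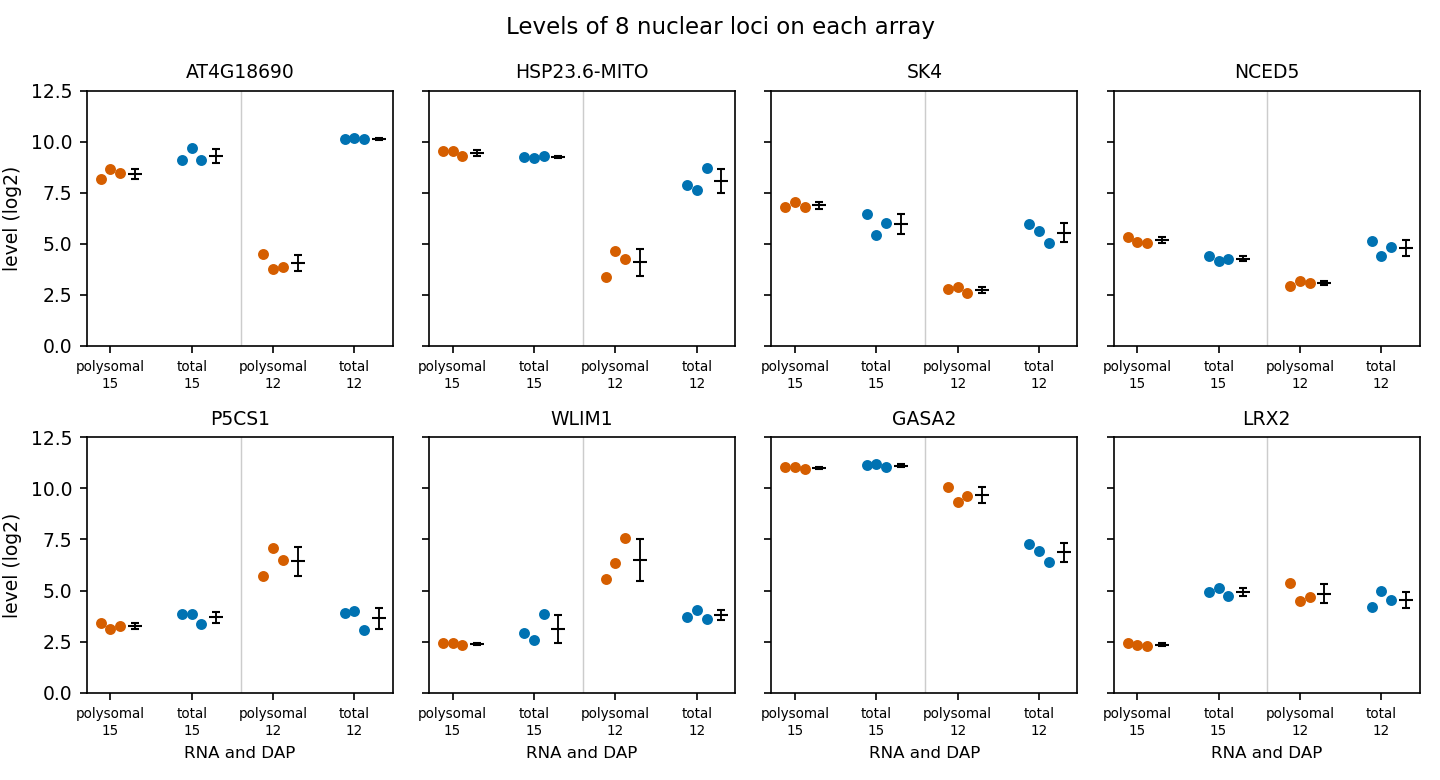
Log2 level on each of the 12 arrays (points) of 4 loci whose ratio was higher (top) and 4 whose ratio was lower (bottom) at 15 DAP, with the mean and SD of 3 arrays beside the points (bars). Groups run from polysomal and total RNA at 15 DAP to polysomal and total RNA at 12 DAP. In the top panels the polysomal values of 12 DAP lie below every other group, and in the panels of P5CS1, WLIM1 and GASA2 they lie above total RNA of the same stage.

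Several of the named falls had a polysomal level above the total level at 12 DAP. The polysomal arrays of that stage had the narrowest spread of levels over loci, and its part in these falls was not tested. P5CS1, which encodes an enzyme of the first step of proline synthesis, had 3.40, 3.13 and 3.26 in polysomal and 3.83, 3.87 and 3.36 in total RNA at 15 DAP, against 5.69, 7.10 and 6.49 in polysomal and 3.888, 4.004 and 3.054 in total RNA at 12 DAP. The polysomal values of 12 DAP stood above all others, and the remaining 3 groups lay close together. Its ratio fell by 3.20 (SE 0.55, adjusted p = 0.0057). WLIM1, an actin-bundling LIM protein, had the same pattern and fell by 3.40 (SE 0.64, adjusted p = 0.010). Its polysomal values were 2.42, 2.45 and 2.35 at 15 DAP, against 5.55, 6.33 and 7.57 at 12 DAP.

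GASA2, a gibberellin-regulated peptide gene, differed in that its total RNA carried most of the change. It had 11.04, 11.03 and 10.96 in polysomal and 11.12, 11.20 and 11.03 in total RNA at 15 DAP, against 10.09, 9.31 and 9.61 in polysomal and 7.30, 6.93 and 6.38 in total RNA at 12 DAP. Both fractions were higher at 15 DAP, total RNA by 4.25 and polysomal RNA by 1.34. The ratio change was -2.91 ± 0.47 (adjusted p = 0.0038). For LRX2, a leucine-rich repeat extensin of the cell wall, total RNA overlapped between the stages while polysomal RNA was lower, at 2.42, 2.35 and 2.29 at 15 DAP, against 5.37, 4.51 and 4.67 at 12 DAP. LRX2 changed by -2.87 ± 0.48 (adjusted p = 0.0046). EXPA23, an expansin that loosens cell walls, changed by -2.99 ± 0.56, with a polysomal minus total level of -1.17 at 15 DAP and 1.82 at 12 DAP.

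AT4G23432 had the largest fall among the loci that the naming rule covers, -3.67 ± 0.57 (adjusted p = 0.0027). It had 2.76, 3.34 and 2.81 in polysomal and 5.32, 7.17 and 6.01 in total RNA at 15 DAP, against 5.07, 4.96 and 5.24 in polysomal and 4.51, 4.69 and 4.64 in total RNA at 12 DAP. It was the named fall with the lowest polysomal minus total level at 15 DAP (-3.20), and at 18 and 20 DAP that level was -3.25 and -2.59. AT4G05340, AT3G13686, AT1G44130, AT2G20618 and AT4G00070 fell by 3.36, 3.28, 3.26, 3.23 and 3.12, and AGL95, a MADS-box transcription factor gene, by 3.21. MSRB8, a methionine sulfoxide reductase that repairs oxidized proteins, fell by 3.20 (SE 0.68), and LrgB, a plastid envelope transporter of photorespiration, by 2.92 (SE 0.61). The call of MSRB8 was lost after cyclic loess (adjusted p = 0.062) and that of both in 4 of the 12 fits without a single array. Of the 62 loci called lower on both scales, 50 were nuclear protein-coding genes, and 0 were mitochondrial. Of all 27827 loci 26486 were nuclear protein-coding genes and 92 (0.33%) were mitochondrial.

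The levels of most light reaction genes of photosynthesis were lower at 15 DAP in both fractions. Of 48 genes of the light reactions, 46 were lower at 15 than at 12 DAP in polysomal RNA and 46 in total RNA. Of all loci 68.6% were called in polysomal RNA (38.9% lower) and 43.2% in total RNA (21.8% lower). In the ratio 1 was called higher and 2 lower, against 2.0% and 0.895% of all loci, and 39 of the 48 lay below 0, with a median of -0.63. On quantile values 0 were called higher and 2 lower, against 1.13% and 0.435% of all loci. LHCB1.2, a chlorophyll-binding antenna gene, rose by 2.93 ± 0.73 (adjusted p = 0.041, and 0.076 on quantile values), and its total RNA was 2.57, 3.43 and 1.85 at 15 DAP, against 8.21, 7.98 and 7.33 at 12 DAP. LHCB2.2, another antenna gene, fell by 2.42 (SE 0.51, adjusted p = 0.019), and NPQ4, whose protein dissipates excess light energy, by 1.98 (adjusted p = 0.034, and 0.072 on quantile values). NPQ4 lies outside the naming rule. The call was lost in 8 of the 12 fits without a single array for LHCB1.2, and in 3 for LHCB2.2 (adjusted p up to 0.14 and 0.079). Antenna genes are a family of near-identical copies, between which probes may not separate, and LHCB1.3 showed -0.31 ± 0.67 (adjusted p = 0.84).

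In the Calvin cycle, which fixes carbon dioxide, 1 of 15 genes rose and 1 fell, against 2.0% and 0.895% of all loci, with a median of -0.56. RBCS2B, a small subunit of Rubisco from a family of similar copies, had 1.88, 1.69 and 1.53 in polysomal and 1.63, 1.71 and 1.05 in total RNA at 15 DAP, against 3.38, 1.63 and 2.41 in polysomal and 5.05, 5.79 and 5.42 in total RNA at 12 DAP. Its change of 3.18 ± 0.58 (adjusted p = 0.0079) came with a total level that was 3.95 lower at 15 DAP. Both fractions of RBCS2B were near the floor at 15 DAP, as the mean level of a locus over the 12 arrays ran from 1.301 to 12.854. FBA2, a plastid aldolase, fell by 1.99 (SE 0.46, adjusted p = 0.029). Its call was lost with array weights (adjusted p = 0.067) and in 5 of the 12 fits without a single array.

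Of 13 storage protein genes 1 was called, against 2.90% of all loci. SESA4, a 2S albumin, rose by 2.15 ± 0.53 (adjusted p = 0.038, and 0.20 on quantile values). It had 11.73, 11.82 and 11.79 in polysomal and 12.02, 12.10 and 11.92 in total RNA at 15 DAP, against 8.06, 9.13 and 9.69 in polysomal and 11.47, 11.36 and 11.21 in total RNA at 12 DAP. Its call was also lost in 8 of the 12 fits without a single array. CRA1, a 12S globulin, had -0.37 ± 0.41 (adjusted p = 0.66), and the median of the list was -0.37 as deposited and 0.43 after scaling to one median absolute deviation. Of 8 oil body protein genes 0 were called, with a median of -0.95, and OLEO1, the main oleosin, had -0.95 ± 0.41 (adjusted p = 0.22). The mean level over the 12 arrays was 12.38 for CRA1 and 12.05 for OLEO1, where the highest of any locus was 12.85. Whether levels so near the top of the scale limited the change that could be seen was not tested.

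Of 33 genes that make fatty acids and triacylglycerol, 0 were called as deposited (median -0.29), against 2.90% of all loci. On quantile values 2 fell, against 0.435% of all loci: KASI (-2.18) and CAC2 (-2.07), an elongating synthase and a subunit of the carboxylase that starts the pathway. DGAT1, which adds the last acyl chain of the oil molecule, had -0.88 ± 0.49 (adjusted p = 0.34). Of 19 genes for reserve lipid mobilisation 0 were called, with a median of -0.29.

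Late embryogenesis abundant (LEA) proteins, thought to protect drying cells, had 1 called member of 47, against 2.90% of all loci, with a median of -0.10. AT3G53040 had 11.24, 11.34 and 11.39 in polysomal and 11.58, 11.60 and 11.62 in total RNA at 15 DAP, against 4.50, 6.10 and 5.99 in polysomal and 9.72, 9.22 and 8.40 in total RNA at 12 DAP. Both fractions were higher at 15 DAP, and the ratio rose by 3.31 ± 0.61 (adjusted p = 0.0082). EM6, listed under the symbol GEA6, had -0.40 ± 0.41 (adjusted p = 0.63). In the same list 30 genes rose in polysomal and 31 in total RNA, against 29.7% and 21.4% of all loci.

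Of 16 maturation transcription factors 1 was called, ABI5, against 2.90% of all loci. Their ratio changes ran from -1.75 to 1.75, with a median of 0.32 and a quantile median of -0.01. FUS3 had 0.17 ± 0.53, ABI3 had -0.24 ± 0.55 and LEC1 had -0.97 ± 0.51, with adjusted p of 0.89, 0.85 and 0.32. On quantile values the sign of FUS3 changed (-0.52, adjusted p = 0.71). For ABI3 the 2 fractions rose by similar amounts, 2.48 in polysomal and 2.71 in total RNA. DOG1, which sets the depth of dormancy, had -0.60 ± 0.56 (adjusted p = 0.59). WOX2, a homeobox gene of the embryo's apical lineage, rose by 2.95 ± 0.54 (adjusted p = 0.0088, and 0.063 on quantile values). It was the 1 gene called among 13 of the embryo epidermis and shoot pole. On quantile values CUC2, a boundary gene, was called higher there (2.37) and PDF1, an epidermal gene, lower (-1.97).

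Counts for the translation machinery and the proteasome were near the 2.90% called over all loci. Of 35 genes for cytosolic ribosomal proteins 0 were called, with a median of 0.13, which was -0.45 on quantile values. Of 30 translation factors 1 was called, EIF4B1, an initiation factor (1.78 ± 0.45, adjusted p = 0.044, and 0.27 on quantile values), and the list's median was 0.57 as deposited and -0.10 on quantile values. Of 34 proteasome subunits 1 was called, PAD2 of the core particle (2.05 ± 0.47, adjusted p = 0.027, and 0.14 on quantile values). On quantile values another core subunit, PBC2, fell instead (-2.60). The call was lost in 9 of the 12 fits without a single array for EIF4B1 and in 6 for PAD2.

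Of 19 seed coat flavonoid genes 1 was called, against 2.90% of all loci. DFR, a late enzyme of tannin and anthocyanin synthesis, had 3.23, 2.33 and 3.21 in polysomal and 2.69, 2.32 and 2.98 in total RNA at 15 DAP, against 5.80, 5.66 and 6.30 in polysomal and 8.64, 7.71 and 7.83 in total RNA at 12 DAP. Both fractions were lower at 15 DAP, total RNA by more, and the ratio rose by 2.40 ± 0.53 (adjusted p = 0.024), which was not called after cyclic loess (adjusted p = 0.11) or in 4 of the 12 fits without a single array. TT4, the first enzyme of the flavonoid pathway, had 0.89 ± 0.47 (adjusted p = 0.31), and -0.04 on quantile values. None of 15 mucilage, 17 endosperm or 9 silique valve markers was called as deposited, and on quantile values MYB5, a seed coat regulator in the mucilage list, was called higher (3.09, against 1.58 as deposited).

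Of 29 core histones 1 was called, against 2.90% of all loci. HTA11, which encodes a variant of histone H2A, was lower (-2.20 ± 0.52, adjusted p = 0.031, and 0.067 on quantile values), and the call was lost in 8 of the 12 fits without a single array. Among 32 cell cycle genes, 21 listed expansins and xyloglucan enzymes, 8 genes of the raffinose list and 10 genes of chlorophyll breakdown 0 were called. The expansin list is partial and leaves out EXPA23, which was called lower. The raffinose list also holds PER1, a peroxiredoxin gene. Of the 26 lists 11 had 0 calls as deposited, and 7 had medians of opposite sign on the deposited and the quantile values. Among the 7 were the lists of mucilage genes (0.15 and -0.02), core histones (0.32 and -0.02) and chlorophyll breakdown (0.22 and -0.15). After scaling to one median absolute deviation the medians of the lists of LEA proteins, fatty acid genes, lipid mobilisation and the proteasome were 0.47, 0.23, 0.39 and 0.31, against -0.10, -0.29, -0.29 and -0.34 as deposited.

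**Figure D4:**
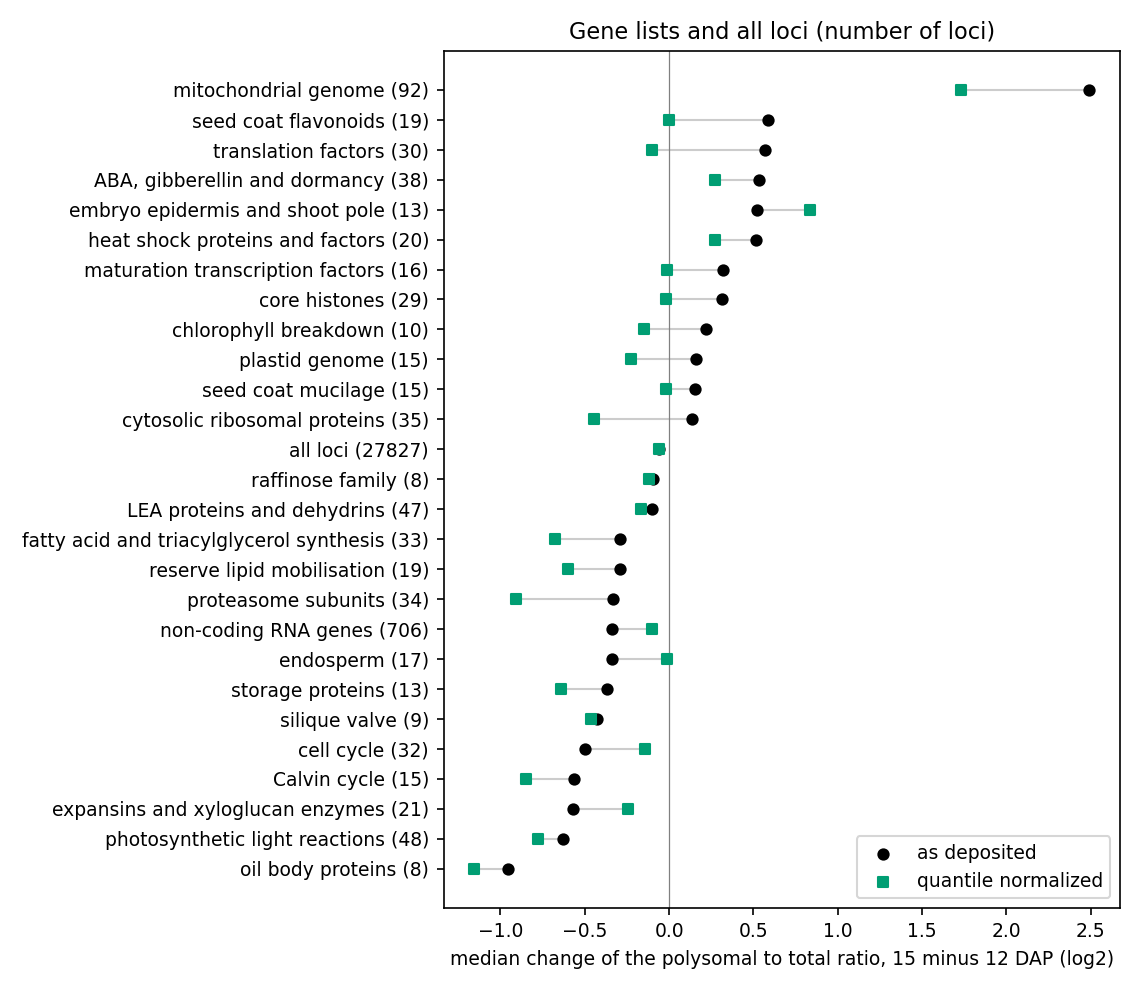
Median change of the polysomal to total ratio (log2, 15 minus 12 DAP) for each gene list and for all loci, as deposited (circles) and after quantile normalization (squares), with the number of loci in brackets. The mitochondrial genome stands at 2.49 and 1.73, and the other lists lie between -1.15 and 0.83.

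The ratio change also depended on how high a locus stood on the arrays. Over loci ordered by their mean level on the 12 arrays and divided into deciles, the median change was -0.61 in the dimmest decile, 0.48 in the eighth and ninth, and 0.18 in the brightest. On quantile values the same medians were -0.21, -0.01 and -0.08, and -0.32, with a peak of 0.20 in the middle deciles. As deposited, the brightest decile held 217 loci called higher and 11 called lower, and the dimmest held 1 and 28. The median level was 6.25 for the loci called higher, 3.20 for those called lower and 4.12 for all loci. Called on both scales were 63 higher and 11 lower in the brightest decile. The SD over loci, which differed among the 4 groups, was not tested as a source of this course.

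**Figure D5:**
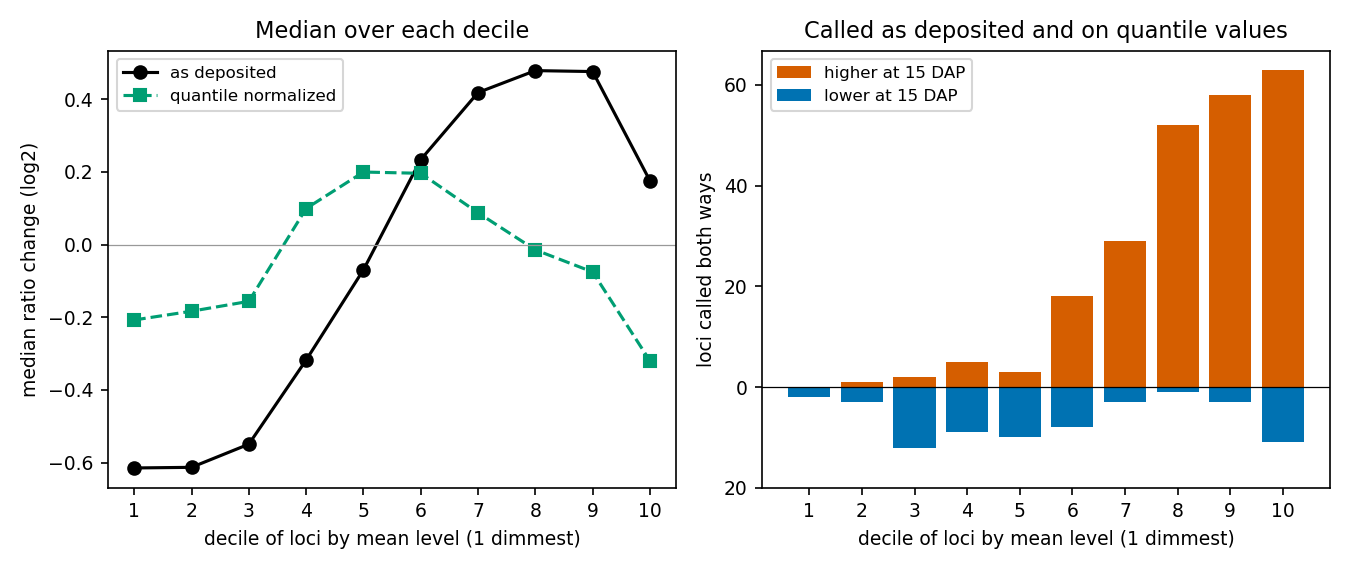
Left, median ratio change (log2) in each decile of the loci by mean level, as deposited (black) and after quantile normalization (green). Right, number of loci called both as deposited and on quantile values in each decile, higher at 15 DAP above the line and lower below it. Rises number 63 in the brightest decile and 0 in the dimmest.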

How the data were processed

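One-colour arrays were used, and the authors deposited 1 log2 value per locus and array, made with RMA per the submitters' processing notes, which give no version. RMA subtracts background, normalizes arrays to one another and summarizes probes. The array design, the genome build and which arrays were normalized together are not given in the sources used here. Arrays hold no count depth, and 3 per group limit the precision. Names came from a RefSeq gene table (27241 of 27827 loci matched, 586 did not). The 182 loci with values identical to another's were tested but are outside the naming rule. ATMG01070, ATMG00930 and ATCG00610 are named although they are among them.

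The 12 arrays were fitted in R 4.3.3 with limma 3.58.1, with 1 mean per group, 8 residual degrees of freedom, no filter on dim loci and p-values adjusted over all loci after Benjamini and Hochberg at 0.05. Polysomal against total RNA within a stage was fitted to its 6 arrays. P-values were not adjusted within lists, and no set test was run. The steps were tested on simulated data. Alternatives were quantile normalization, median centring, scaling to 1 median absolute deviation, cyclic loess, leaving out the dimmest 25% of loci, all 24 arrays, array weights, an intensity trend, replicate blocks and each array left out.

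Named were the 10 largest rises and 10 largest falls called on both scales, in each list the 2 loci with the largest called change, and 12 genes whether called or not. The 8 largest of each direction with a symbol were added after values were seen. Other loci are named outside these rules, also for their values. KASI, CAC2, CUC2, PDF1, PBC2 and MYB5 were called on quantile values only, and AT2G07110 and AT2G07505 were the called falls of their number range. The loci called in opposite directions within the stages are named too, whether or not a rule covers them. Members and lists were chosen with earlier results of these data known. Protein length was not analysed here.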

Additional observations from a re-analysis of the deposited data

Results flagged for a closer look

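The polysomal to total ratio differed between 15 and 12 DAP at 806 loci by the interaction test. At 16 of these the fractions were also called in opposite directions within the 2 stages. Among the 11 with polysomal above total RNA at 15 DAP and below it at 12 DAP, the ratio change was 3.71 for SK4, 3.19 for AT3G11460, 3.14 for AT1G48040, 3.02 for AT1G04330 and 2.97 for ESC, an AT-hook DNA-binding protein. It was 2.81 for AT2G42030, 2.70 for AT3G51320, 2.68 for AT5G23280, 2.61 for NCED5, 2.48 for AT2G30020 and 2.41 for AT4G08960. The 5 with the opposite course had -2.98 (AT5G01140), -2.99 (EXPA23), -3.23 (AT2G20618), -3.26 (AT1G44130) and -3.28 (AT3G13686). Polysomal minus total RNA of SK4 was 0.92 at 15 DAP and -2.79 at 12 DAP (adjusted p = 0.044 and 0.0017, limma on the 6 arrays of a stage). Groups of 3 arrays were not tested for single outlying samples.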

How the results depend on the processing

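The number of loci changed in ratio, 806, was 436 after quantile normalization, 2037 with arrays scaled to 1 median absolute deviation, 363 with cyclic loess and 3645 with all 24 arrays. Leaving out single arrays gave 241 to 1209. Median centring gave 1070 with 86.9% called higher, and scaling 84.8%, against 69.1% as deposited, and these moved the median of all loci to 0.19 and 0.25. The 63 mitochondrial rises became 24 on quantile values and 37 to 69 without single arrays. Polysomal against total RNA counted 3152 loci on quantile values, 1255 in the 12-array fit and 2432 to 5800 without single arrays at 15 DAP (6196), and 922, 4892 and 907 to 1280 at 12 DAP (1573). Between the stages, 7391 loci changed in polysomal RNA on quantile values (19078 as deposited) and 6351 in total RNA (12034). Of 48 called genes named, 33 stayed called in every setting and 15 lost the call in some, while 0 reversed (AGL95, AT4G05340, MSRB8 and RBCS2B had no value without the dimmest loci). The causes were not tested.

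Whether replicate numbers pair the samples was not settled. Deviations of same-numbered arrays correlated at -0.02 to 0.04, and 7 of 12 arrays correlated best with their own number. The count to be expected without pairing was not computed, and the labels state no pairing. With stage and number as a replicate block 391 loci were called, and with number alone 635.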
